A study of Mus musculus with 4 samples.

Results

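The 52 protein-coding mouse genes whose symbols begin with Eif1 to Eif6 encode the factors that start translation, together with their kinases, exchange factor and binding proteins. They were chosen by symbol and biotype from the 19150 genes listed in both deposited tables, and no measured value was used. Eif2s3x and Eif2s3y were left out by the same rule. Expression was measured by RNA sequencing of brains of E13.5 (embryonic) mice on the C57BL/6 strain, in 2 macroH2A knockout (KO) libraries, KO2 and KO4, and 2 wild-type (WT) libraries, WT6 and WT8. MacroH2A is a histone H2A variant with a large extra domain. The labels name neither the gene targeted nor the allele, and give no litter. The authors' tables set KO2 beside WT6 and KO4 beside WT8.

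At the start of translation, eIF2 brings the initiator tRNA to the small ribosomal subunit, where eIF1, eIF1A, eIF3 and eIF5 help to find the start codon. The cap of the mRNA is bound by eIF4F, which joins the cap-binding protein eIF4E, the scaffold eIF4G and the RNA helicase eIF4A. Cells tune both steps: eIF2 kinases and the exchange factor eIF2B set the supply of active eIF2, and 4E-BP proteins keep eIF4E from eIF4G. Inherited loss of eIF2B function causes a white-matter disease of the brain, and control of translation is needed for synapses to change.

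The tables hold between 16470090 reads (WT8) and 18136745 reads (KO2) per library. The label check came from H2afy, the gene of macroH2A1, with 1368 (KO2) and 1267 (KO4) reads in knockouts against 5538 (WT6) and 5593 (WT8) in wild types, a log2 fold of -2.22 (SE 0.10, edgeR adjusted p = 0.00167). Without WT6 that fold was -2.29 and no longer passed (edgeR adjusted p = 0.314). H2afy2 differed by 0.08 (edgeR adjusted p = 0.799). By their transcripts, KO2 and WT6 were male and KO4 and WT8 female, so that sex and deposited table cannot be told apart. Markers of neurons (Tubb3, Dcx, Stmn2) and of neural progenitors (Vim, Fabp7, Nes) were at between 384 and 3442 CPM (the read count scaled by TMM to library size) in each library. Summed over 10 genes of red blood cells, levels were 1006 and 910 CPM in KO2 and KO4 against 787 and 1484 CPM in WT6 and WT8, the highest being in WT8. Microglia and macrophage genes (8 tested) summed to 54.7 and 51.96 CPM in KO2 and KO4 against 55.3 and 65.2 CPM in WT6 and WT8, and the white blood cell gene Ptprc was at no more than 0.273 CPM.

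No initiation factor gene passed the test of KO against WT. Across 15708 tested genes, 0.00637% passed at an edgeR adjusted p under 0.05, and 0 of the 52 initiation factor genes did, with a lowest adjusted p of 0.743. Eif2b4 had an edgeR unadjusted p under 0.05, as did Eif4ebp3, which passed the filter on low counts only through the KO libraries. At that threshold there were 2 of the 52 (3.85%), beside 4.70% of all genes. Without WT6 there were 12 (23.1%, beside 15.9% of all genes), and without WT8 1 (1.92%, beside 8.08%). Without KO2 or KO4 there were 0, beside 2.00% and 0.802%. The number past the adjusted threshold was 0 each time. DESeq2 also gave 0 at an adjusted p under 0.05, and 0 at an unadjusted one. The log2 fold change of KO over WT was above 0 for 31 genes and below 0 for 21, with a median of 0.02, beside -0.01 over all genes tested. Both KO libraries were above both WT libraries for 11 genes (21.2%, beside 20.1% of all genes) and below them for 12 (23.1%, beside 19.4%). Those shares lay near the ones over all genes. Without WT8, with WT6 as the 1 library left to set them against, those counts were 16 (30.8%, beside 33.8%) and 20 (38.5%, beside 35.8%).

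The width of the intervals reflects the spread of 2 libraries per group and not depth alone. They do not show that levels were unchanged. In 48 of the 52, at a mean of at least 10 CPM, the log2 fold change lay between -0.25 and 0.23. Their 95% intervals reached from 0.695 to 1.48 times WT at the widest, and the median interval extended 0.21 on the log2 scale to either side. The 52 genes together took 1.08% and 1.07% of reads in the KO libraries, against 1.07% and 1.05% in the WT libraries. In bulk RNA, fewer cells of a type and less RNA per cell cannot be told apart.

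**Figure D1:**
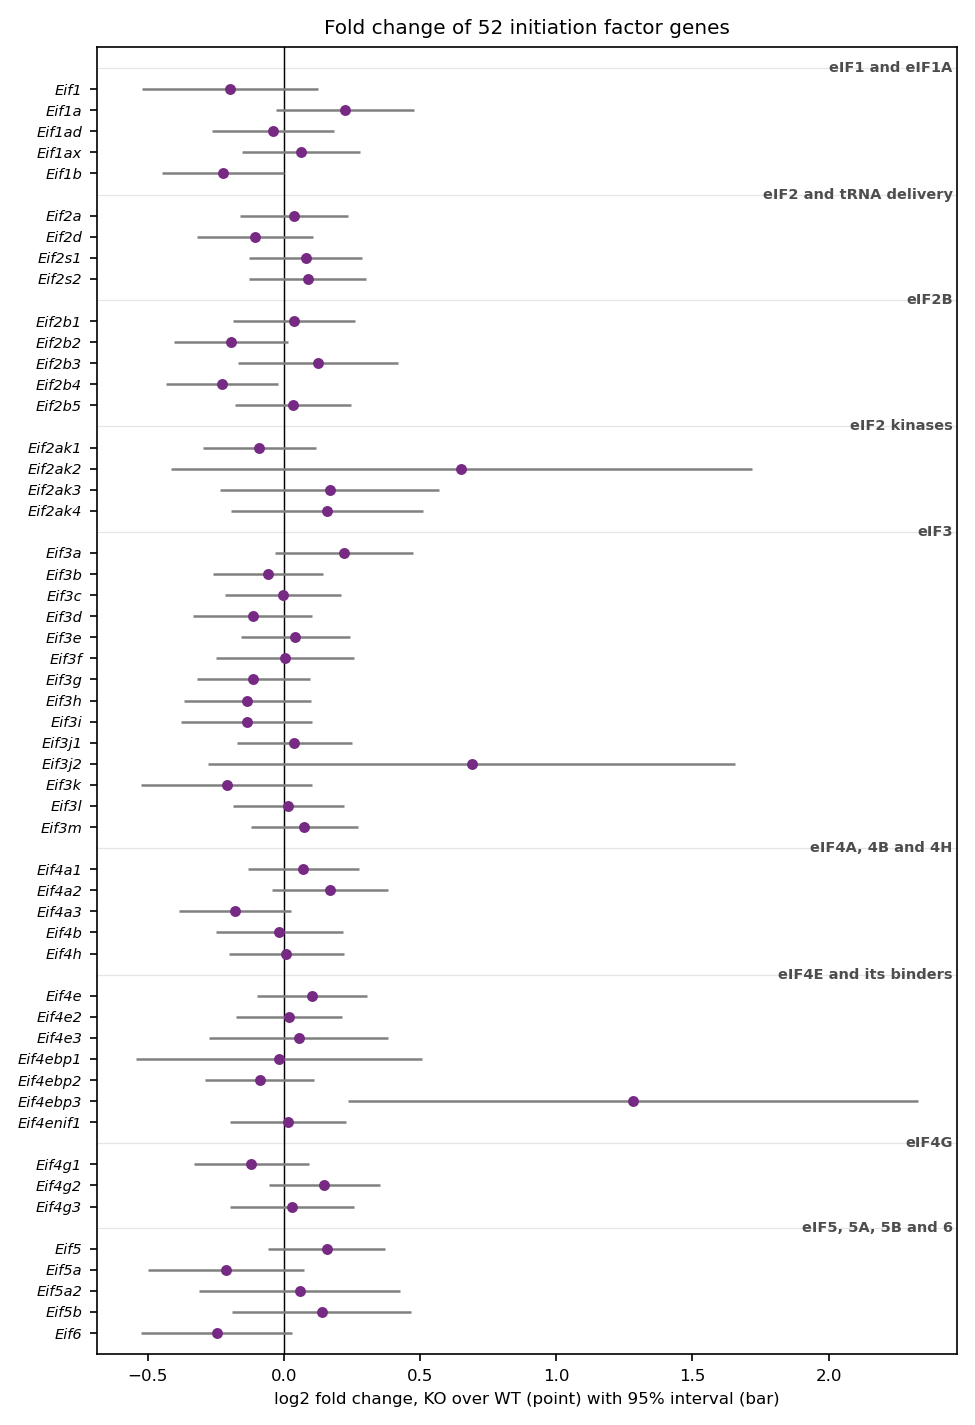
Log2 fold change of KO over WT for each of the 52 initiation factor genes with its 95% interval, in groups by role. The 48 genes at 10 CPM or more lie between -0.25 and 0.23, and Eif4ebp3 is the highest at 1.28.

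Levels between genes were compared per length, as RPKM (CPM per kilobase of the longest protein-coding transcript). Eif4a1, the main eIF4A helicase of dividing cells, had 603 ± 7.75 RPKM in KO, the highest mean there, and 574 ± 14.3 in WT (mean ± SD, n = 2 each). Eif5a, whose protein carries the modified amino acid hypusine and helps peptide bonds form, had 497 ± 26.7 RPKM in KO and 576 ± 83.5 in WT, and both of these genes were level in WT within their spread. Eif3h, Eif1, Eif3k and Eif1b followed, with between 223 and 312 RPKM in KO and between 260 and 343 RPKM in WT. At the other end, Eif2ak2 had 0.48 RPKM in KO and 0.30 in WT, Eif3j2 0.60 and 0.37, and Eif4ebp3 1.39 and 0.57. With the union of all exons as the length, Eif5a had rank 1 and Eif4a1 rank 3, and Eif3i moved from rank 7 to rank 19, so that only wide gaps in this order are free of the length chosen.

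**Figure D2:**
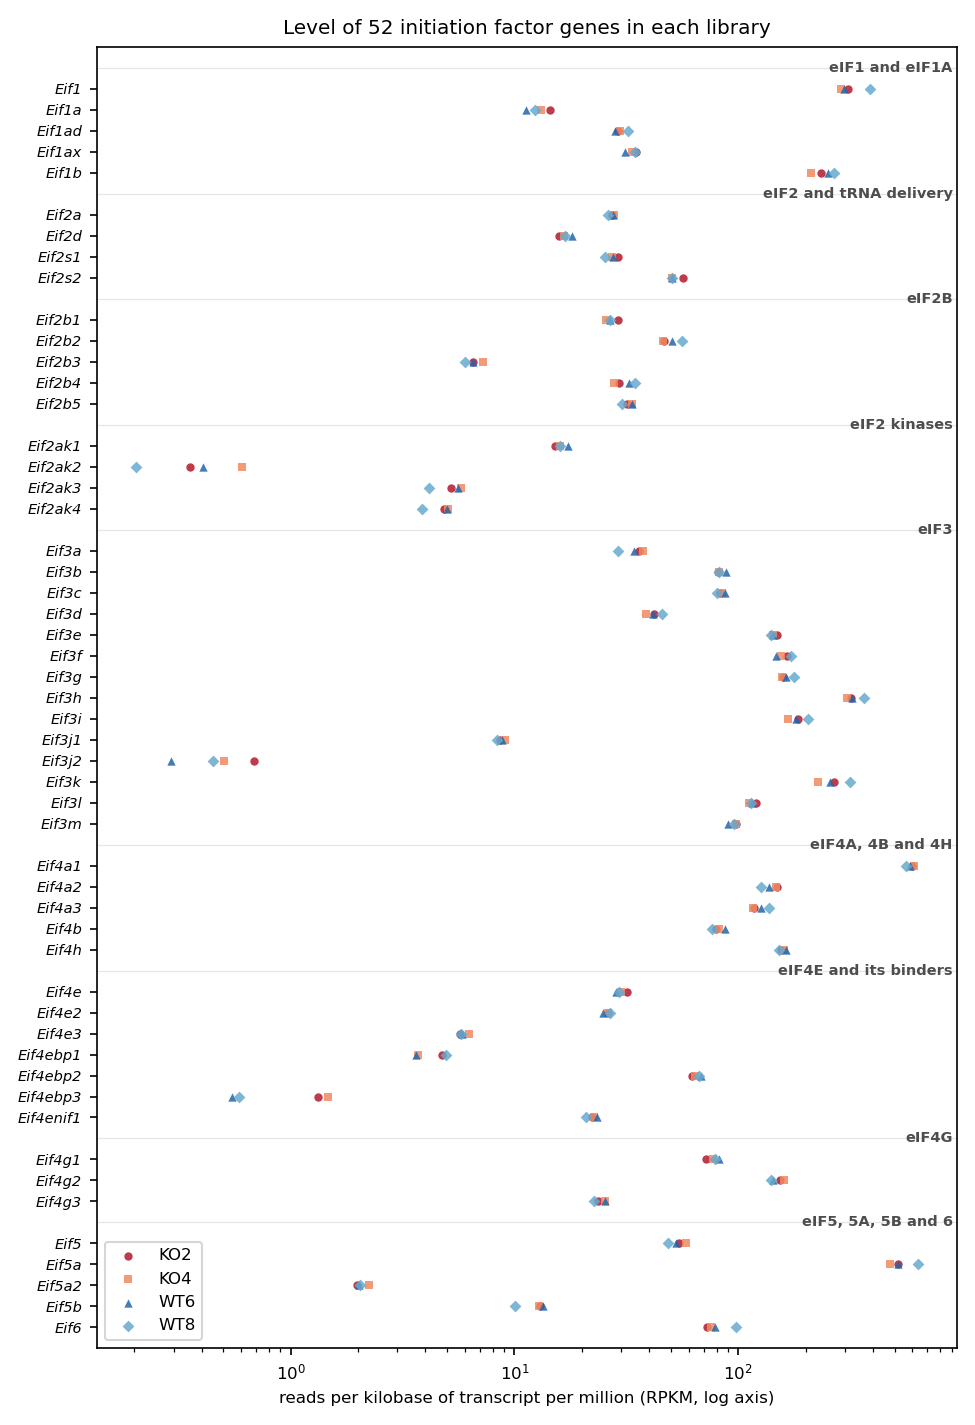
Level of each initiation factor gene in RPKM on a log axis, with 1 point per library, KO2 and KO4 beside WT6 and WT8. Levels run from 0.20 RPKM for Eif2ak2 to 635 RPKM for Eif5a, both in WT8, and the points of a gene lie close together beside that range.

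Among the genes of start codon selection, Eif1 and Eif1b encode near-identical proteins that keep the ribosome from starting at wrong codons. Eif1b had 243 and 218 CPM in KO2 and KO4, against 261 and 277 CPM in WT6 and WT8. The KO libraries were both below the WT libraries, and the log2 fold change was -0.22 (SE 0.09, edgeR adjusted p = 0.743). Eif1b and the other genes given in full were chosen for a small p, which favours groups that do not overlap. Eif1 had 409 and 381 CPM in KO against 393 and 512 CPM in WT, where WT8 alone stood high and the groups overlapped. Eif1a, a gene for a form of eIF1A, which helps to hold the ribosome open for scanning, had 41.2 and 37.6 CPM in KO against 32.2 and 35.3 CPM in WT. Both KO libraries were above both WT libraries, at a log2 fold of 0.23 (SE 0.11, edgeR adjusted p = 0.743). Its X-linked paralog Eif1ax differed by 0.06 with overlap. Per length, Eif1a made up 29.3% and 28.1% of the pair in KO2 and KO4, against 26.6% and 26.3% in WT6 and WT8. An exact permutation test of 2 against 2 libraries cannot go below p = 0.333, so such shares were not tested.

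The promoter of Eif1b held the E-box CACGTG, the palindrome bound by MYC and related factors. That motif was searched in the 300 bases around the start (250 before, 50 from it on) of the 41 initiation factor genes found in the RefSeq promoter table (GRCm38.p6). It was in 8 of them (19.5%), beside 10.02% of 11050 tested genes and 7.24% of all 27025 promoters in the table. The others were Eif3a, Eif3f, Eif3k, Eif4a1, Eif4g1, Eif4h and Eif5a2. The stretches of 4 of these genes are shown as examples. The E-box is in capitals, each stretch reads 5′ to 3′ on the strand of its gene, and Eif4g1 has 2 matches.
Eif1b E-box, chr9:120492555-120492614 (+): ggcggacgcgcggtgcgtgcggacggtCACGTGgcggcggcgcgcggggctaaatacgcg
Eif3a E-box, chr19:60790664-60790698 (-): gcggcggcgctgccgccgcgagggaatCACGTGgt
Eif4a1 E-box, chr11:69672580-69672639 (-): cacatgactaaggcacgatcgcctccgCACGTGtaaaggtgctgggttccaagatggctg
Eif4g1 first E-box, chr16:20672646-20672705 (+): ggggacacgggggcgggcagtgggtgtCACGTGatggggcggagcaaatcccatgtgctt
Eif4g1 second E-box, chr16:20672715-20672756 (+): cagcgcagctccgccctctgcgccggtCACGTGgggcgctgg

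Of these 4 genes, Eif3a had a log2 fold change of 0.22 and Eif4a1 of 0.07, while Eif1b and Eif4g1 were at -0.22 and -0.12. The others with the E-box, Eif3f, Eif3k, Eif4h and Eif5a2, were at 0.00, -0.21, 0.01 and 0.06, and none passed. Eif3a and Eif1b were given in detail for a small p in their own direction, so their opposite signs follow from that choice. A match is a run of letters and not a site of binding.

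The ETS motif CCGGAAG, searched on both strands, was in 14 of the 41 promoters (34.1%), beside 17.1% of tested genes and 9.14% of the table. The GC box GGGCGG was in 30 (73.2%), beside 64.7% and 35.9%, and at a median GC content of 62.0% the promoters were close to the 61.0% of tested genes. TATAAA was in 3 (7.32%, beside 6.77%), the NRF1 core GCGCATGC in 3 (7.32%, beside 5.28%) and the YY1 word AAGATGGC in 2 (4.88%, beside 4.42%). The CRE word TGACGTCA (3.30% of tested genes) and the ATF4 composite word TTGCATCA (0.525%) were in 0 of 41. The 5′ terminal oligopyrimidine (TOP) mRNAs, which mTORC1 controls, start at a C followed by pyrimidines. Only the most upstream listed start of each gene was read for this, and genes without an entry, such as Eif3e and Eif3h, were not read. Of the 41 promoters, 1 (2.44%, beside 2.35% of tested genes) started at a C followed by 4 pyrimidines. It belongs to Eif3f, for a subunit of eIF3, and the pyrimidine run from the listed start on is in capitals.
Eif3f start, chr7:108934385-108934444 (+): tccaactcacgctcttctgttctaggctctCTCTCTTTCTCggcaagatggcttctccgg

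Among the genes of eIF2 and tRNA delivery, the alpha subunit Eif2s1 differed by 0.08 and the beta subunit Eif2s2 by 0.09 on the log2 scale, and the alternative tRNA carriers Eif2a and Eif2d by 0.04 and -0.11. Eif2s2 had 144 and 129.1 CPM in KO against 129.1 and 128.4 CPM in WT, so that KO2 alone stood apart. Its processed pseudogene Gm9892, identical at 99.5% of aligned bases, held reads equal to 11.5% and 11.2% of those of Eif2s2 in KO and to 11.6% and 11.7% in WT. Between such copies the split of reads is uncertain. The gamma subunit is encoded by the left-out X-linked and Y-linked pair Eif2s3x and Eif2s3y, whose summed level was 109 and 77.8 CPM in KO2 and KO4 against 88.3 and 41.1 CPM in WT6 and WT8.

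The eIF2 kinases, which halt eIF2 under stress, were led by Eif2ak1 (HRI, the kinase that senses heme). Per length, it made up 59.4% and 58.3% of the 4 kinases in KO2 and KO4, against 61.1% and 65.9% in WT6 and WT8. Both KO shares were below both WT shares, and the share in WT8 stood highest. The level of Eif2ak1 itself overlapped, with 65.9 and 69.1 CPM in KO2 and KO4 against 74.8 and 68.8 CPM in WT6 and WT8, at -0.09. Eif2ak3 (PERK, of the endoplasmic reticulum) and Eif2ak4 (GCN2, which senses uncharged tRNA) differed by 0.17 and 0.16 with overlap, both lowest in WT8. Eif2ak2 (PKR, which senses double-stranded RNA) had 28 and 48 reads in KO against 30 and 14 in WT, few enough that its 95% interval ran from -0.42 to 1.72 on the log2 scale.

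Of the 5 subunits of eIF2B, which recharges eIF2 with GTP, Eif2b4 and Eif2b2 had the lower KO levels. Eif2b4 (delta) had 59.6 and 56.2 CPM in KO2 and KO4, against 65.7 and 69.7 CPM in WT6 and WT8. The groups did not overlap, and the log2 fold change was -0.23 (SE 0.09, edgeR unadjusted p = 0.0359, adjusted p = 0.743). Eif2b2 (beta) had 74.5 and 74.3 CPM in KO, against 80.9 and 89.6 CPM in WT. The groups did not overlap, at -0.20 (SE 0.09, edgeR adjusted p = 0.743), which was -0.12 without WT8. The other 3 subunits, Eif2b1, Eif2b3 and Eif2b5, were at 0.04, 0.12 and 0.03 with overlap. Both genes were given in detail for a small p in the lower direction, so their shared sign follows from that choice. Stretches of the promoters of Eif2b4 and Eif2b2 are shown because both carry the ETS motif (in capitals). Of the others with that motif, Eif1ad, Eif1b, Eif2ak1, Eif3c, Eif3d, Eif3g and Eif4ebp2 were at -0.04, -0.22, -0.09, -0.003, -0.11, -0.11 and -0.09. Eif1ax, Eif3l, Eif3m, Eif4e2 and Eif5a2, which also carry it, were at 0.06, 0.02, 0.08, 0.02 and 0.06.
Eif2b4 ETS, chr5:31193110-31193164 (-): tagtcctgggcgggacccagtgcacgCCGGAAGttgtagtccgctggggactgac
Eif2b2 ETS, chr12:85219471-85219510 (+): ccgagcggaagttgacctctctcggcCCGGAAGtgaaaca

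The eIF3 genes, whose products form the large scaffold on the small subunit, split evenly, with 7 of 14 above 0 and a median of 0.00 on the log2 scale. Their summed level was 2867 and 2752 CPM in KO2 and KO4, against 2812 and 2966 CPM in WT6 and WT8. Eif3a, the largest subunit, had 184 and 193 CPM in KO, against 176 and 148 CPM in WT. Both KO libraries were above both WT libraries and WT8 was lowest, at a log2 fold of 0.22 (SE 0.11, edgeR adjusted p = 0.743), which was 0.11 without WT8 and 0.35 without WT6. Eif3k, a small subunit at the edge of the complex, had 243 and 206 CPM in KO against 233 and 287 CPM in WT, where WT8 stood highest and the groups overlapped. Eif3j2, nearly identical to Eif3j1 (99.7% of aligned bases, with 90.8% of its 50-base windows found there), had 30 and 22 reads in KO against 12 and 17 in WT, and its reads cannot be told from those of Eif3j1 over most of its length. Of the exon bases of Eif3d, 43.3% lie opposite the noncoding gene Gm17638, with 15 and 21 reads in KO against 19 and 8 in WT.

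Among the helicases, Eif4a2, the eIF4A of neurons and other resting cells, had 404 and 399 CPM in KO2 and KO4, against 373 and 341 CPM in WT6 and WT8. Both KO libraries were above both WT libraries, at a log2 fold of 0.17 (SE 0.09, edgeR adjusted p = 0.743), which was 0.11 without WT8. Eif4a1 was above WT in both KO libraries too, with 1060 and 1079 CPM in KO against 1035 and 999 CPM in WT, at 0.07. Per length, Eif4a2 made up 19.97% and 19.5% of the pair in KO, against 19.1% and 18.3% in WT. Eif4a3, the eIF4A-like helicase of the exon junction complex, had 177 and 175 CPM in KO against 191 and 207 CPM in WT. The KO libraries were below the WT libraries, at -0.18 (SE 0.09, edgeR adjusted p = 0.743), which was -0.12 without WT8. The helicase cofactors Eif4b and Eif4h were at -0.02 and 0.01.

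Eif4a1 has a near-identical pseudogene, so the split of reads between the copies is uncertain. Eif4a-ps4 on chromosome 1 had 3464 and 3447 reads in KO2 and KO4 against 3065 and 2345 in WT6 and WT8, or 17.8% and 17.4% of the reads of Eif4a1 in KO and 17.2% and 14.7% in WT. It matched the coding sequence at 1217 of 1218 bases, and 95.7% of its 50-base windows are in the Eif4a1 transcript. The difference, G534A, counted from 1 at the first coding base of Eif4a1, lies in the stretch from base 490 to 579 below, where capitals mark bases that differ from Eif4a1. Within the coding part and away from that base, both copies read alike, whereas Eif4a1 and Eif4a2 shared 0 windows.
Eif4a1: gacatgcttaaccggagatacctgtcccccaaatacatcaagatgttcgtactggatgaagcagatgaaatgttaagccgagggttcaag
Eif4a-ps4: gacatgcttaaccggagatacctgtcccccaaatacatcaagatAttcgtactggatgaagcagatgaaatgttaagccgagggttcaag
Eif4a2: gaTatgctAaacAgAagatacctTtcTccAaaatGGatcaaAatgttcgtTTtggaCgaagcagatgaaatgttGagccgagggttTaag

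Cap-binding genes differed little. Eif4e had 159 and 149.6 CPM in KO2 and KO4, against 142 and 146 CPM in WT6 and WT8, at 0.10 on the log2 scale, and its paralogs Eif4e2 and Eif4e3 were at 0.02 and 0.05. The 4E-BP genes were nearly all Eif4ebp2, the form known from neurons, at 91.1% and 92.6% of the family per length in KO and 94.2% and 92.4% in WT. Eif4ebp3 had the largest fold of the 52 and few reads, with 18 and 20 in KO against 7 and 7 in WT. The groups did not overlap, at a log2 fold of 1.28 with a 95% interval of 0.24 to 2.33 (edgeR unadjusted p = 0.0232, adjusted p = 0.743). It passed the filter on low counts only through the KO libraries, so its place among the high folds follows in part from that filter. Of its exon bases, 67.3% are also exon bases of AC115631.1, a protein-coding gene on the same strand not analysed here, so the source of its reads is uncertain.

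Within the eIF4G scaffolds, the share of Eif4g2 differed most. Eif4g2 (DAP5), which lacks the eIF4E-binding part, had 1233 and 1281 CPM in KO2 and KO4, against 1148 and 1121 CPM in WT6 and WT8. The KO libraries were above the WT libraries, at 0.15 (SE 0.09, edgeR adjusted p = 0.743). Eif4g1, the main scaffold, had 403 and 433 CPM in KO against 463 and 446 CPM in WT, with the KO libraries below, at -0.12 (SE 0.09). Per length, Eif4g2 made up 61.8% and 61.1% of the 3 scaffolds in KO against 57.2% and 58.0% in WT, and Eif4g1 28.7% and 29.3% against 32.7% and 32.7%. Eif4g3 overlapped at between 9.36% and 10.1% in all 4 libraries.

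**Figure D3:**
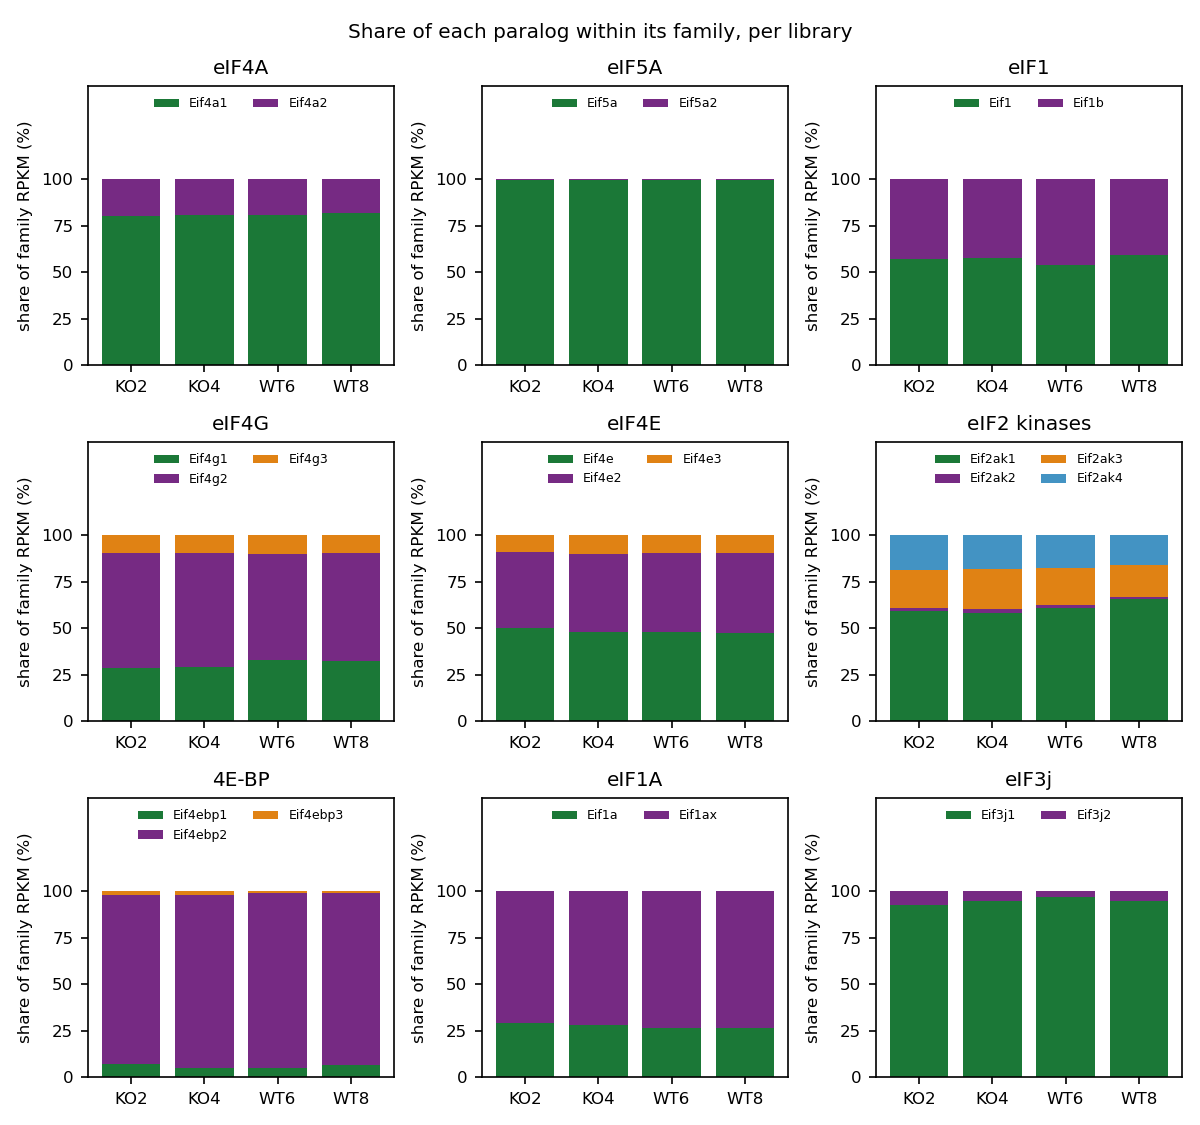
Share of each paralog in the summed RPKM of its family, in percent, as stacked bars with 1 bar per library, KO2 and KO4 left of WT6 and WT8. The Eif4g2 share is 61.8% and 61.1% in KO against 57.2% and 58.0% in WT, and the Eif2ak1 share is below WT in both KO libraries. The CPM of Eif2ak1 itself overlaps between KO and WT.

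Among the late-acting factors, Eif5, which makes eIF2 hydrolyse its GTP, had 220.3 and 237 CPM in KO2 and KO4, against 213 and 198 CPM in WT6 and WT8. The KO libraries were above the WT libraries, at 0.16 (SE 0.09, edgeR adjusted p = 0.743), which was 0.10 without KO4. Eif5a had 742 and 687 CPM in KO against 742 and 912 CPM in WT, where KO2 and WT6 were equal to 3 digits and WT8 stood high, at -0.21 (SE 0.12, edgeR adjusted p = 0.743). Eif6, which keeps the large subunit from joining too early, had 108 and 114 CPM in KO against 118 and 146 CPM in WT. WT8 was again the highest, and the log2 fold change was -0.25 (SE 0.12, edgeR adjusted p = 0.743). Without WT8 the folds of Eif5a and Eif6 were -0.05 and -0.08, and without WT6 they were -0.35 and -0.39. Eif5b, which joins the subunits, had 101 and 101 CPM in KO against 105 and 78.1 CPM in WT, so that WT8 was the lowest.

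By transcript length, KO4 and WT8 had the steepest trends, with opposite signs. The deviations of a gene over the 4 libraries sum to 0, so the trends depend on each other. A trend in 1 library alone would force opposite ones among the others. Over the 48 genes at 10 CPM or more, Pearson's r between log2 transcript length and a library's deviation from the mean of 4 reached 0.73 in KO4 and 0.16 in KO2, against -0.70 in WT8 and 0.30 in WT6. Over the 9711 genes of that level, r was 0.41 in KO4 and 0.03 in KO2, against -0.45 in WT8 and 0.15 in WT6. The points share 4 libraries, so no p is given. Of the 15 genes with a transcript under 2000 bases, 11 had a log2 fold change below 0, the median was -0.14, and WT8 was highest in 11. Of the 14 with a transcript of 4000 bases or more, 11 were above 0, the median was 0.08, and WT8 was lowest in 8 and highest in 0. With that length trend removed from each library, a fit chosen after seeing the data, Eif4g2 was at 0.07, Eif5a at -0.13, Eif1b at -0.12 and Eif4a3 at -0.11. Of the 12 genes given in full, 9 came closer to 0, while Eif4a2 was at 0.18, Eif1a at 0.23 and Eif4ebp3 at 1.41, and 0 of the 52 passed. WT8 was also highest in 8 of the 10 red blood cell genes, in 6 of the 8 microglia and macrophage genes, and in 6 of 7 tested genes of meningeal and mural cells, whose summed levels were 69.7 and 63.8 CPM in KO2 and KO4 against 63.7 and 77.9 CPM in WT6 and WT8. In the other lists, WT8 was highest in 5 of 8 neural progenitor genes, 3 of 8 endothelial genes and 2 of 8 neuron genes. The part of cell types in the folds was not tested.

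**Figure D4:**
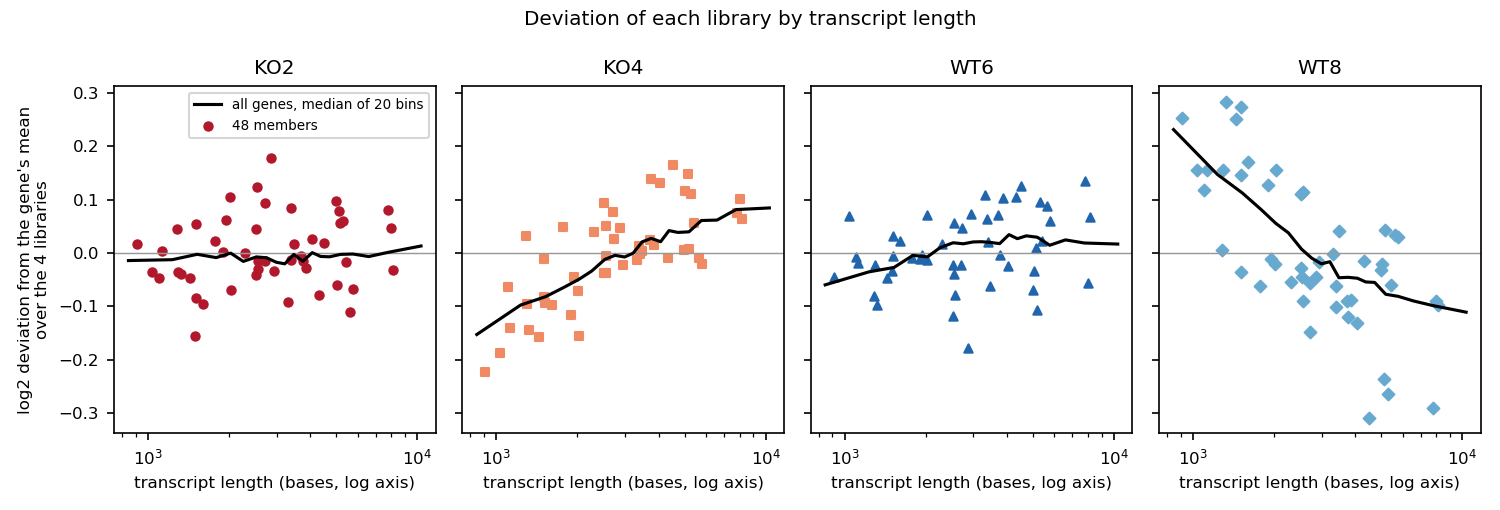
Deviation of each library from the mean of 4 libraries (log2, vertical) against transcript length in bases (log axis) for the 48 initiation factor genes at 10 CPM or more (points), 1 panel per library, with the binned median of all genes as a line. Points climb with length in KO4 (r = 0.73) and descend in WT8 (r = -0.70), with weaker slopes in KO2 and WT6. The deviations of a gene over the 4 libraries cancel out, so the panels depend on each other.

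Taken 1 pair at a time, the authors' deposited table gave more calls, with 1 library per group. The shares of all genes beside those calls are over 19150 genes, of which 15708 passed the filter on low counts. All 52 initiation factor genes passed it. In KO2 over WT6 the authors' deposited table had 20 of the 52 genes at an adjusted p under 0.05 (11 higher and 9 lower in KO, beside 18.2% of all genes). In KO4 over WT8 the authors' deposited table had 35 (22 higher and 13 lower, beside 41.3%). Genes at that threshold in both numbered 10 (beside 11.3% of all genes), and 6 of them had the same direction (beside 42.1% of all such genes): Eif4a1, Eif4a2, Eif4e and Eif4g2 higher, Eif1b and Eif4a3 lower in KO. The authors' mark of significance was carried by Eif3j2 in the first pair (1 gene, beside 1.93%) and by Eif2ak2 and Eif4ebp3 in the second (2 genes, beside 5.07%). All 3 are among the genes with the fewest reads. In these counts, the ratios of the pairs had opposite signs in 27 of the 52 (51.9%), beside 50.1% of all genes.

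Other genes of translation did not pass either. The partners of initiation (26 tested) had 15 above 0 and a median of 0.03, with Abcf1 at -0.18, Dhps, which makes hypusine, at -0.19, and Pdcd4, an inhibitor of eIF4A, and Impact at 0.23 each. Elongation and termination factors (15) had 10 below 0 and a median of -0.09, with Eef2 at -0.15, Eef1b2 at -0.20, Eef1a1 at 0.14 and Etf1 at 0.12. The mTORC1 genes (20) had 11 above 0 and a median of 0.01, with Akt1s1 at -0.26, Ddit4 at -0.18, Sesn1 at 0.26 and Rraga at 0.15. Targets of ATF4, which eIF2 phosphorylation induces, had 15 of 24 below 0 and a median of -0.08, with 9 below both WT libraries in both KO libraries, beside 19.4% of all genes, and 3 above them, beside 20.1%. Shmt2, an enzyme of serine metabolism, had 117 and 114 CPM in KO2 and KO4, against 136 and 143 CPM in WT6 and WT8, at -0.27 (SE 0.08, edgeR adjusted p = 0.743). Aars was at -0.22, and Nars and Chac1 were at 0.19 and 0.33. The number that passed was 0 in each of these lists.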

How the data were processed

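Libraries were made from Trizol-extracted RNA, per the labels' protocols, and grouped by the genotype label. Litters are not given, and p-values reflect the spread of these libraries. By their transcripts each group holds a male and a female library, which are not repeats of the same embryo. The spread within a group therefore includes any difference by sex. The authors deposited 2 tables of whole-number read counts per gene, 1 KO beside 1 WT library, with a log2 fold change and adjusted p-value, per the file headers. Bowtie2 2.2.3, TopHat2 2.0.12, HTSeq 0.6.0 and the build mm9 are named, per the submitters' processing notes; the positions of 43 of the 52 genes equal GENCODE M21 on GRCm38, the build used here. Use of strand in counting is not stated in the labels or headers, and 22 of the 52 genes share exon bases with another gene.

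Tables were joined by gene identifier. All 4 libraries were fitted in R 4.3.3 with edgeR 4.0.16 (quasi-likelihood F-test, TMM, filterByExpr, Benjamini-Hochberg over 15708 genes, threshold 0.05). The fit was run on simulated data with large planted changes only, so detection of folds as small as most here was not tested. All 52 genes passed the filter. DESeq2 1.42.0, limma-voom (limma 3.58.1), other normalizations and filters, the deposited pair or sex as a term, and leaving out each library were alternatives. Full statistics went to the 6 genes with the smallest p in each direction. That KO and WT do not overlap in these genes therefore follows in part from the choice. Paralog families and, for other lists, the 2 smallest p per direction were given as values. The 52 genes were set by symbol and biotype. The genes given in detail and the other lists were chosen with earlier results of these data known.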

Additional observations from a re-analysis of the deposited data

How the results depend on the processing

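KO and WT libraries share no replicate number in the labels, and pairs could be taken only from the deposited tables. With that deposited pair as a replicate block, or sex as a term, 2 of all genes passed and 0 of the 52. The count of initiation factor genes that passed was 0 in all 13 alternatives. Among all genes it was 1, and 2 with total counts alone, with a minimum of 10 summed reads or with the length trend removed, 4 with DESeq2, and between 0 and 104 without single libraries (0 without WT6, 104 without WT8, 2 without KO4). The cause was not tested. The median log2 fold change of the 52 was 0.0614 with total counts alone, where that of all genes was 0.03, and between 0.00120 and 0.0526 without single libraries. H2afy lay between -2.29 and -2.16 without single libraries, and missed the threshold without WT6 (-2.29). Both KO libraries were below the remaining WT library for 20 genes (38.5%, beside 35.8% of all genes) without WT8, where fewer libraries have to agree. Signs differed from those given for between 1 and 10 of the 52 in 8 alternatives, most without WT8. With 2 libraries per group, changes smaller than the intervals were not detectable at this depth and replication. The 95% intervals are per gene and not adjusted for the number of genes tested. Changes larger than the intervals could therefore also miss the adjusted threshold. The log2 intervals of Eif2b4 (-0.43 to -0.02) and Eif4ebp3 (0.24 to 2.33) left out 0, at an edgeR adjusted p of 0.743 each. Eif4ebp3 passed the filter on low counts only through the KO libraries, so its interval is no support for a change. That 0 of the 52 passed does not exclude changes of the size that the intervals cover.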

Other observations

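Mitochondria use their own initiation, elongation and recycling factors, and these did not pass either. Of 11 such genes tested, 4 had a log2 fold change above 0 and 7 below, with a median of -0.02 beside -0.01 over all genes. Guf1, a factor that moves mitochondrial ribosomes back, had 42.8 and 42.1 CPM in KO2 and KO4 against 36.6 and 35.1 CPM in WT6 and WT8, at 0.24 (SE 0.09, edgeR adjusted p = 0.743). Tsfm, the exchange factor of mitochondrial elongation, had 34.6 and 31.5 CPM in KO against 36.9 and 40.5 CPM in WT, at -0.23 (SE 0.11, edgeR adjusted p = 0.743). In both genes the KO libraries lay on 1 side of the WT libraries.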
